A study of Mus musculus with 6 samples.

Results

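The transcripts described here come from the mitochondrial genome, the small circular DNA that a cell keeps in many copies inside its mitochondria. Members were the rows of the count table whose symbol starts with mt- or is one of the upper-case symbols of the mitochondrial coding genes. This gave 15 of the 49997 rows, 2 for the ribosomal RNAs and 13 for the protein-coding genes. RNA had been sequenced from small pre-B cells sorted by flow cytometry from the bone marrow of C57BL/6 mice aged 6 to 12 weeks. Mice were either wild type (WT) or of the genotype ΔrsCBE, which the sample labels write as rsCBE, with 3 libraries of each. The series title connects the genotype with chromatin topology mediated by CTCF and with receptor editing, and the interval that Δ removes is not given in the sources used here. No allele, agent or driver other than the genotype is labelled, and nothing in the labels says whether the libraries of a genotype came from separate mice. P-values therefore measure the spread between these libraries, part of which may be technical.

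The mitochondrial genome encodes subunits of the respiratory chain and of ATP synthase, plus the 12S and 16S rRNAs and the tRNAs with which the organelle translates them. A single-subunit polymerase reads each strand as a long RNA, and the tRNAs that separate most genes are cut out to release the mature rRNAs and mRNAs. Most genes are read from 1 strand. ND6 is the only protein-coding gene on the other, which has the minus sign in the annotation. Steady-state levels differ between genes of a common precursor because the released RNAs are stabilised and degraded at different rates. All other respiratory chain subunits, and every protein that copies, transcribes or processes mitochondrial DNA and RNA, are encoded in the nucleus. Small pre-B cells rearrange light chain genes and have mostly left the cell cycle.

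Libraries held 428106 to 1300805 counts. All 12 markers of the B lineage that were examined had counts, among them Cd79a, Pax5 and Rag1 at a minimum of 852, 2729 and 2555 counts per 1000000 counts of the library (CPM). Of 10 erythroid markers 9 were analysed and 2 had a count, with a summed level of 0 to 0.769 CPM in WT and 1.004 to 2.38 CPM in ΔrsCBE, and Hbb-bs and Alas2 were at 0. Myeloid markers summed to 83.5 to 109.8 CPM in WT and 98.9 to 114.8 CPM in ΔrsCBE, with 8 of 10 detected and S100a8 and Elane at 0. T and NK cell markers summed to 4.81 to 9.34 and 4.01 to 9.53 CPM, with 3 of 10 detected and Cd3e at 0. Plasma cell markers summed to 149.5 to 219.9 and 161.7 to 191.8 CPM, with 6 of 8 detected and Tnfrsf17 at 0. The cell-cycle list did differ, with 6139 to 6571 CPM in WT and 2560 to 4135 CPM in ΔrsCBE, and 11 of its 16 tested genes were called lower (edgeR adjusted p under 0.05). ΔrsCBE replicates 2 and 3 had a female pattern of Xist and Y-linked counts, and the other 4 libraries had a male pattern. There is no female WT library, and within ΔrsCBE the sex of a library and its other properties cannot be told apart. In bulk RNA, fewer cells of a type and less RNA per cell cannot be told apart.

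The 15 genes did not all yield counts, and those at or near 0 lie side by side. COX1, COX2 and COX3 encode the 3 core subunits of cytochrome c oxidase, respiratory complex IV. COX1 had 24605 counts over the 6 libraries, whereas COX2 had 4 and COX3 had 2. ATP6 and ATP8, the mitochondrial subunits of ATP synthase, had 8 and 1. ND3 and ND4L, subunits of NADH dehydrogenase (complex I), were at 0 in all 6 libraries, which at a limit of 3 counts allows up to 2.31 to 7.01 CPM depending on the library. These 6 genes (COX2, ATP8, ATP6, COX3, ND3 and ND4L) fill the stretch between COX1 and ND4, chrM:7013-10173 on GRCm38, apart from tRNAs. The remaining 7 coding genes had 212 to 24605 counts each.

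A block of annotated pseudogenes on chromosome 1 (GRCm38, 24611535 to 24616197, minus strand, 4663 bases) holds copies of this stretch in the same gene order. COX2 was identical to Gm28661 over 681 bases, ATP6 to Gm10925 over 678, COX3 to Gm28437 over 783 and ND4L to Gm10222 over 294. ND3 differed from Gm28438 at 1 of 345 bases. The copy also takes in the last part of COX1 (Gm29216, from base 1063 of the gene on) and the first 876 bases of ND4 (Gm28439). The offset between both genomes was constant from COX1 to ND3 and moved by 1 base before ND4L, and on the first offset the place of ATP8 in the block would be 24614609 to 24614812. Its last 43 bases there lie in Gm10925, the rest lies in none of the 7 pseudogenes, and the sequence of that rest was not analysed here. The sequences that follow (GENCODE M21 on GRCm38, 5′ to 3′) show both ends of the annotated copy and the difference it has from ND3, a gene at 0 counts. Capitals in the first pair and in the second pair mark bases that differ between gene and copy. The first 9 bases shown of COX1 lie before the aligned part, where T1056A, C1057T, A1059G, A1060G and C1062A separate the gene from the pseudogene.
COX1 (chrM:6381-6413, plus strand): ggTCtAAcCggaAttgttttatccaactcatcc
Gm29216 (chr1:24616165-24616197, minus strand): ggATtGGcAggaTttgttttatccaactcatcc
ND3 (chrM:9459-9481, plus strand): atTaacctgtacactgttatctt
Gm28438 (chr1:24613097-24613119, minus strand): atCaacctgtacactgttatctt
Counted from 1 at the 5′ end of each gene, the single differences inside the aligned parts were A1066T in COX1 and T3C in ND3, with the mitochondrial base first in each token. COX2 needs only 1 line, since Gm28661 has the same bases, and the capitals mark its first codon.
COX2 and Gm28661 (chrM:7013-7072, plus strand): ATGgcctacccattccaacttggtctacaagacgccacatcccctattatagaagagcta
At the far end of the block the capitals mark the last 30 bases of ND4 that the pseudogene holds. The lower-case bases lie beyond the annotated end of the pseudogene, and the sequence of chromosome 1 there was not analysed here.
ND4 (chrM:11013-11072, plus strand): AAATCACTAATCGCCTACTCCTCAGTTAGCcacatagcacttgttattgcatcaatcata

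To describe this across all members, each gene was cut into every window of 50 bases, and the share of windows found without a mismatch in any annotated transcript outside the mitochondrial genome was computed. COX2, ATP6, COX3, ND3 and ND4L had 98.0% to 100% of their windows in a nuclear transcript, and these 5 genes together had 14 counts. In the 7 coding genes with counts the share ran from 0% to 62.2%, and they summed to 40168 counts. The share was 62.2% in ND4, 51.1% in COX1, 8.19% in ND2, 7.61% in ND5 and 0% in ND1, ND6 and CYTB, and among the rRNA genes 1.04% in mt-Rnr2 and 0% in mt-Rnr1. ATP8 is the exception, with 0% of windows and 1 count. Its last 43 bases, in capitals here, are also the first 43 bases of ATP6, and a read there lies in both genes.
ATP8 with its ATP6 overlap (chrM:7917-7969, plus strand): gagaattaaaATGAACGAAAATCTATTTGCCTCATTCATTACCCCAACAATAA
The same 5 genes were past 95% with windows of 36, 75 and 100 bases. Windows with a mismatch do not count, so a low share does not mean that a gene has no nuclear copy. COX1 aligned over 1545 bases to Gm13340 on chromosome 2, at 97.6% identity. On chromosome 4, ND6 aligned over 519 bases to Gm11408 (93.6%) and CYTB over 1142 bases to Gm11410 (92.9%). Gm10925 and Gm10222 themselves were at 0 counts in each library, and the other pseudogenes of the block were not analysed here. Read length and the treatment of reads that map to several places are not given in the sources used here, and the part of these copies in the low counts was not tested. The counts of COX2, ATP6, ATP8, COX3, ND3 and ND4L are therefore uncertain, and those of ND4 and COX1 may be partial.

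**Figure D1:**
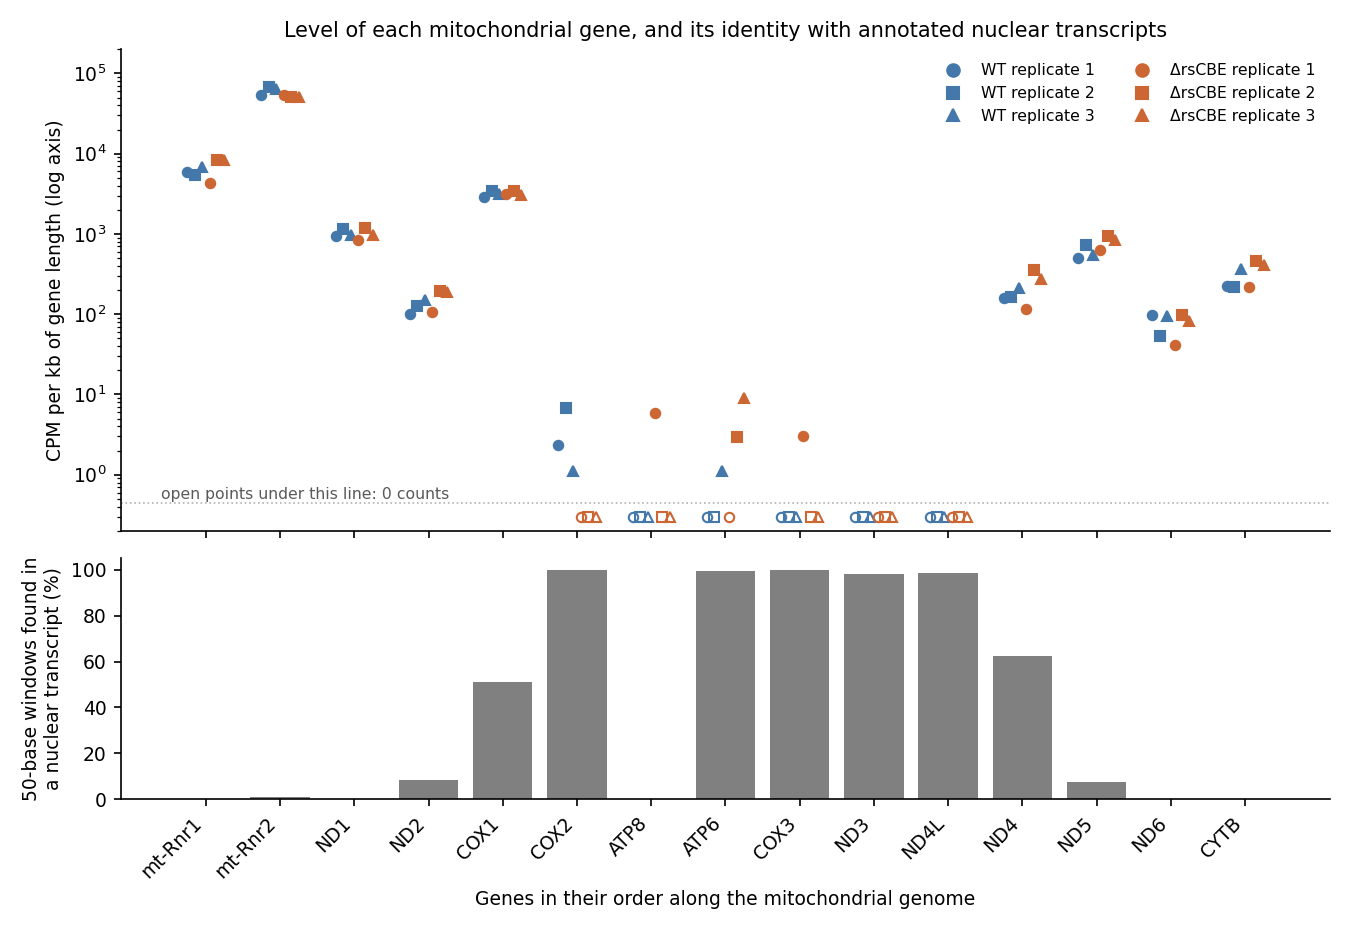
The upper panel plots CPM per kb of gene length on a log axis for each member in each of the 6 libraries, in genome order, with open points for 0 counts. The lower panel plots the percent of a gene's 50-base windows found in a nuclear transcript. The genes from COX2 to ND4L lie at or under 9.06 CPM per kb in every library, and those of them other than ATP8 have bars of 98.0% or more.

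Per length, the ribosomal RNAs stood far above the coding genes. On the scale of CPM per kb of gene length, averaged over 6 libraries, the 16S rRNA gene mt-Rnr2 had 56979 and the 12S rRNA gene mt-Rnr1 had 6494. The levels of the coding genes followed with 3193 for COX1, 1007 for ND1, 695 for ND5, 317 for CYTB, 214 for ND4, 145 for ND2 and 78.4 for ND6. ND1, ND2, ND4, ND5 and ND6 are subunits of complex I, and CYTB is the mitochondrial subunit of complex III. The library ranges of mt-Rnr2, mt-Rnr1, COX1 and ND1 were apart from each other in this order, as was ND5 (495 to 935) from CYTB (220 to 461) and ND2 (102 to 196) from ND6. ND1 (829 to 1180) and ND5 (495 to 935) overlapped, as did CYTB with ND4 (118 to 355) and ND4 with ND2. ND6, on the minus strand, had the lowest range of the 9 genes, 41.3 to 98.95 CPM per kb. It shares 14 bases with ND5 on the opposite strand, and the strand setting of the counting is not given in the sources used here. If all counts had come from the bases outside shared windows, the level would be 12714 CPM per kb for COX1 and 586 for ND4, above the 317 of CYTB.

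Both rRNAs descend from a common precursor, but mt-Rnr2 exceeded mt-Rnr1 in each library. Listing libraries here and throughout in the order of their replicate numbers, the ratio of mt-Rnr2 to mt-Rnr1 per length was 9.13, 12.7 and 9.50 for WT and 12.5, 6.12 and 6.14 for ΔrsCBE. ΔrsCBE replicate 1 lay within the WT range and ΔrsCBE replicates 2 and 3 below it, with 10.4 ± 1.96 in WT and 8.25 ± 3.67 in ΔrsCBE (SD, n = 3). Ribosomal RNA had been depleted before library making, per the labels' protocols, which do not say whether the depletion reached either mitochondrial rRNA. Levels of these 2 genes are those left after it.

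The share of all counts that came from mitochondrial genes describes the total left after rRNA depletion. Across libraries, 90.4% to 93.4% of mitochondrial counts were rRNA, and whether the total before depletion changed with genotype was not tested. For WT the mitochondrial share of all counts was 9.76% (95% Wilson interval from 9.69% to 9.84%), 12.2% (from 12.1% to 12.3%) and 11.6% (from 11.5% to 11.6%). The ΔrsCBE libraries had 9.60% (from 9.54% to 9.67%), 9.84% (from 9.78% to 9.90%) and 9.66% (from 9.59% to 9.72%). These intervals cover counting error only. The ΔrsCBE libraries lay close together and WT replicate 1 lay among them, while WT replicates 2 and 3 were higher. The means were 11.2% ± 1.25 and 9.70% ± 0.125 (SD, n = 3). They differed by -1.47 points, ΔrsCBE minus WT, and the exact permutation test (two-sided) gave p = 0.2. An exact test of 3 libraries against 3 cannot give a p under 0.1. Treated as a single feature in the edgeR fit over all genes, the summed mitochondrial counts had a log2 fold change of -0.22 ± 0.08 (SE, edgeR quasi-likelihood test, Benjamini-Hochberg adjusted p 0.247). Without WT replicate 1 the log2 fold change was -0.31 and the edgeR adjusted p was 0.00402, so 1 library decides this call.

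The lower mean total in ΔrsCBE lay in 1 rRNA, mt-Rnr2, while the means of mt-Rnr1 and of the coding genes together were higher. Mitochondrial rRNA took 9.07%, 11.3% and 10.8% of counts in WT and 8.87%, 8.90% and 8.83% in ΔrsCBE, and the groups did not overlap (10.4% ± 1.19 against 8.86% ± 0.0378, exact permutation p 0.1). Coding genes took 0.696%, 0.839% and 0.766% in WT and 0.736%, 0.940% and 0.832% in ΔrsCBE. Here the groups overlapped and the difference had the other sign, 0.0691 percentage points (exact permutation p 0.5). Within mitochondrial counts, the coding share was 7.13%, 6.90% and 6.62% in WT and 7.67%, 9.55% and 8.62% in ΔrsCBE. All 3 ΔrsCBE values were above all 3 WT values, with means of 6.88% ± 0.257 and 8.61% ± 0.942 (SD, n = 3, exact permutation p 0.1). Over the 7 shares tested in this way, no p-value was under 0.1 and the smallest Benjamini-Hochberg adjusted value of these exact tests was 0.233. The rRNA and coding shares of mitochondrial counts are complements and give the same test, and the adjustment counted both. In the coding share of mitochondrial counts, ΔrsCBE replicate 1, at 7.67%, was the nearest to WT, whose highest library had 7.13%.

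**Figure D2:**
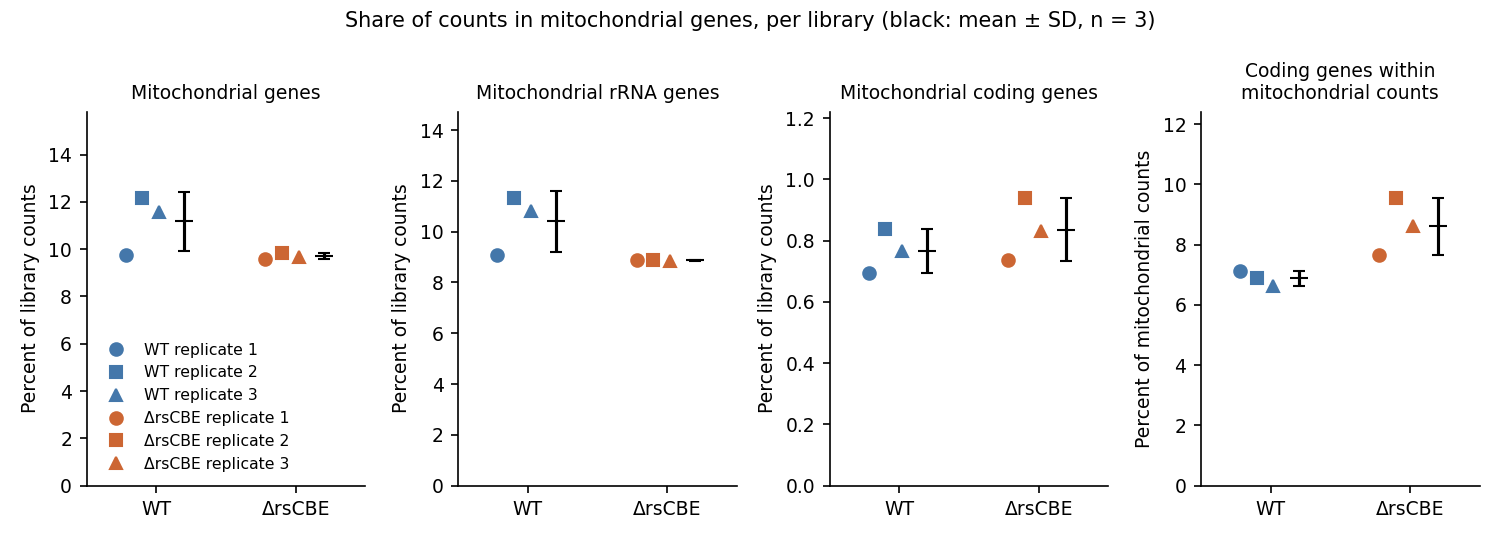
Points are the 6 libraries and black bars the mean ± SD of 3. The panels give the percent of library counts in all mitochondrial, rRNA and coding genes, and the coding share of mitochondrial counts, each on an axis that starts at 0. ΔrsCBE libraries lie between 8.83% and 8.90% for rRNA, below each WT library, and above each WT library for the coding share of mitochondrial counts.

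Single genes were tested in an edgeR fit over 7792 genes, of which 132 (1.69%) had an adjusted p under 0.05, 116 lower (1.49%) and 16 higher (0.205%) in ΔrsCBE. Of the 15 members 9 passed the count filter, and 0 of these 9 passed the threshold by edgeR's quasi-likelihood test or by the DESeq2 Wald test. Unadjusted p-values were under 0.05 for 2 of the 9, mt-Rnr2 and ND5, against 10.2% of all tested genes. Log2 fold changes of ΔrsCBE against WT were above 0 for 6 and below 0 for 3, with a median of 0.21 against 0.01 for all tested genes. In TMM-scaled CPM, WT and ΔrsCBE did not overlap for 1 of the 9, mt-Rnr2, and for 16.1% of all tested genes. The margin for mt-Rnr2 was very narrow on this scale. In log2 against the WT mean, ΔrsCBE replicate 1 was at -0.2291 and WT replicate 1 at -0.2287.

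The 16S rRNA, scaffold of the large mitochondrial ribosomal subunit, held most mitochondrial counts. mt-Rnr2 (chrM:1094-2675) had 85043, 108160 and 101672 CPM in WT and 84585, 81019 and 80364 CPM in ΔrsCBE. Each ΔrsCBE library was below each WT library, but ΔrsCBE replicate 1 and WT replicate 1 differed little. The log2 fold change was -0.27 ± 0.08 (SE, edgeR adjusted p 0.112). It was negative under all alternatives run, and was past the threshold with looser count filters (edgeR adjusted p 0.0139 without a filter and 0.0236 at a CPM of 1) and without WT replicate 1 (0.00120).

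The 12S rRNA, scaffold of the small subunit, differed in order among the ΔrsCBE libraries. mt-Rnr1 (chrM:70-1024) had 5625, 5146 and 6458 CPM in WT. ΔrsCBE replicate 1 had 4088 CPM, below all WT libraries, and ΔrsCBE replicates 2 and 3 had 7995 and 7896 CPM, above all of them. The log2 fold change over the 6 libraries was 0.21 ± 0.31 (SE, edgeR adjusted p 0.908). Without ΔrsCBE replicate 1 it was 0.46 (edgeR adjusted p 0.000963), and without ΔrsCBE replicates 2 and 3 it was -0.51 (edgeR adjusted p 0.00148). Both subsets thus gave a call, in opposite directions, and the second rests on 1 ΔrsCBE library whose spread is taken from WT.

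COX1, the catalytic subunit of complex IV (chrM:5328-6872), varied little between libraries. It had 4518, 5312 and 4832 CPM in WT and 4882, 5292 and 4764 CPM in ΔrsCBE, and the groups overlapped throughout. Its log2 fold change was 0.02 ± 0.09 (SE, edgeR adjusted p 0.978). ND1, a membrane-arm subunit of complex I encoded after the rRNAs (chrM:2751-3707), had 900.3, 1100.2 and 932 CPM in WT and 793, 1129 and 929 CPM in ΔrsCBE. Its log2 fold change was -0.04 ± 0.12 (SE, edgeR adjusted p 0.959). The sign of both genes changed when single libraries were left out, and ND1 was at -0.31 without ΔrsCBE replicates 2 and 3 (edgeR adjusted p 0.317).

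ND5, a membrane-arm subunit of complex I (chrM:11742-13565), had the smallest p-value of the 7 tested coding genes. It had 904, 1336 and 983 CPM in WT and 1140, 1706 and 1537 CPM in ΔrsCBE. ΔrsCBE replicates 2 and 3 were above all WT libraries, while ΔrsCBE replicate 1 lay within the WT range. The log2 fold change was 0.44 ± 0.18 (SE, edgeR adjusted p 0.426). It passed the threshold without WT replicate 2 (0.64, edgeR adjusted p 0.0235), without ΔrsCBE replicate 1 (0.60, 0.0318) and without a count filter (0.46, 0.00270). Without ΔrsCBE replicates 2 and 3 the log2 fold change was 0.08.

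ND4 and CYTB were split in the manner of mt-Rnr1, and ND2 in part. ND4, a proton-pumping subunit of complex I (chrM:10167-11544), had 218, 229 and 291 CPM in WT and 162, 489.8 and 375 CPM in ΔrsCBE. CYTB, cytochrome b of complex III (chrM:14145-15288), had 259.99, 252 and 413 CPM in WT and 251, 527 and 473 CPM in ΔrsCBE. ND2, another membrane-arm subunit of complex I (chrM:3914-4951), had 106, 131 and 158 CPM in WT and 109.6, 204 and 195 CPM in ΔrsCBE. In each of the 3 genes ΔrsCBE replicates 2 and 3 were the highest of the 6 libraries, and ΔrsCBE replicate 1 was the lowest or the second lowest. Their log2 fold changes were 0.45, 0.39 and 0.33, with standard errors of 0.47, 0.37 and 0.21 (edgeR adjusted p 0.838, 0.818 and 0.654). For ND4 the value was 0.78 without ΔrsCBE replicate 1 (edgeR adjusted p 0.00114) and -0.65 without ΔrsCBE replicates 2 and 3 (0.0467). The direction also turned without ΔrsCBE replicates 2 and 3 for CYTB (-0.36, edgeR adjusted p 0.648) and ND2 (-0.32, 0.663).

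ND6 (chrM:13552-14070, minus strand) was measured with little precision. It had 32, 12 and 65 counts in WT and 18, 50 and 35 counts in ΔrsCBE, or 51.4, 28.03 and 49.97 against 21.4, 50.2 and 43.2 CPM. The groups overlapped, and the log2 fold change was -0.23 ± 0.28 (SE, edgeR adjusted p 0.852). Without ΔrsCBE replicates 2 and 3 it was -1.09 (edgeR adjusted p 0.198). As a share of mitochondrial counts ND6 with the minus-strand tRNAs took 0.0405% ± 0.0141 in WT and 0.0405% ± 0.0159 in ΔrsCBE (SD, n = 3, exact permutation p 1.0). The 22 tRNA genes are listed under symbols that start with Trn, outside the rule for members. They had 23 counts in all, in 5 of the 22 genes, a share of mitochondrial counts of 0.00557% ± 0.00233 in WT and 0.00368% ± 0.00259 in ΔrsCBE (exact permutation p 0.4). With so few counts, differences in tRNAs could not be detected, and the reason for the low counts was not tested.

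**Figure D3:**
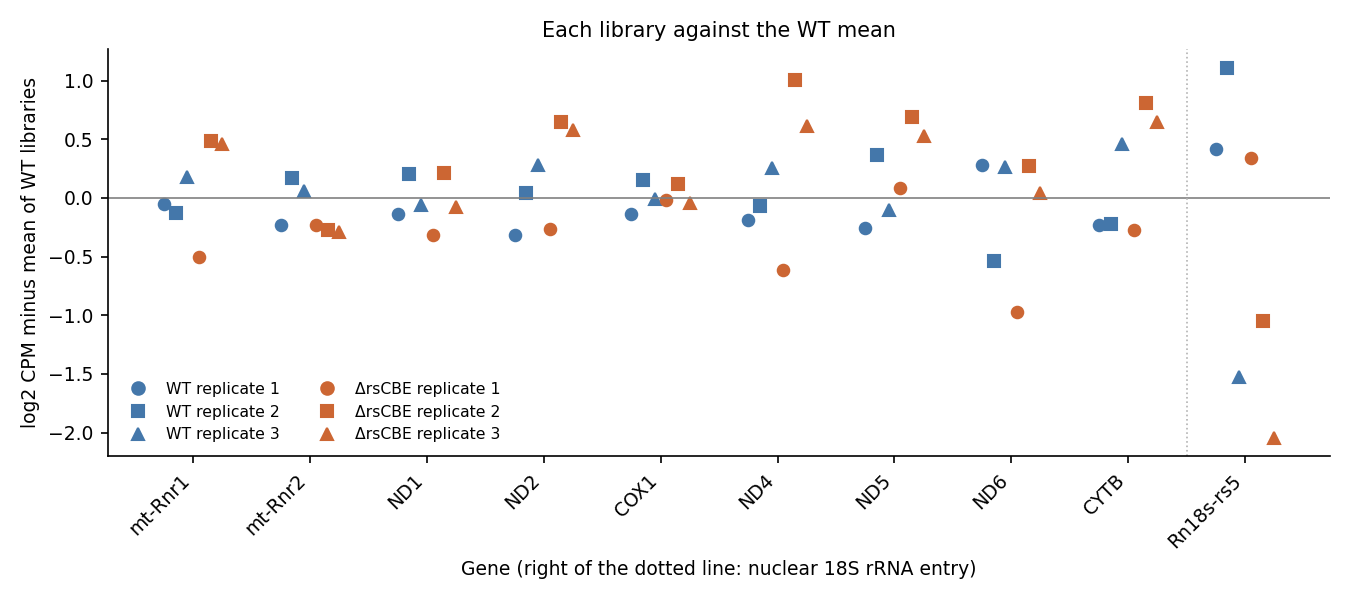
Points are the 6 libraries, plotted as log2 CPM minus the mean of the 3 WT libraries for each of the 9 tested mitochondrial genes and, on the right, for the nuclear 18S rRNA entry Rn18s-rs5. ΔrsCBE replicate 1 lies at -0.50 for mt-Rnr1 and -0.61 for ND4, while ΔrsCBE replicates 2 and 3 lie at 0.48 and 0.46 for mt-Rnr1 and at 1.004 and 0.61 for ND4.

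On the TMM-scaled CPM of that plot, 3 of the 9 genes, mt-Rnr1, ND4 and CYTB, had a common order. ΔrsCBE replicate 1 was below all WT libraries, and ΔrsCBE replicates 2 and 3 were both above all of them. The same order held for 213 (2.73%) of all 7792 tested genes. For CYTB the lower margin was small, with ΔrsCBE replicate 1 at -0.28 and WT replicate 1 at -0.24 in the plot. This order of libraries was noticed in the data, so that the count is a description. Several values moved with it. ΔrsCBE replicates 2 and 3 are the libraries with the female pattern. Counts left on nuclear 18S rRNA, read from the entry Rn18s-rs5 after the pattern was seen, were 1077, 1672 and 274 CPM in WT and 1014, 382 and 193 CPM in ΔrsCBE. The 3 libraries with the lowest 18S level (WT replicate 3 and ΔrsCBE replicates 2 and 3) were also the 3 highest for 4 of the 9 genes, mt-Rnr1, ND2, ND4 and CYTB, and for 442 (5.67%) of all tested genes. They were not the 3 highest for the other 5 (mt-Rnr2, ND1, COX1, ND5 and ND6). With sex as a covariate, the genotype term rests on ΔrsCBE replicate 1 and 1 of the 9 genes was called, mt-Rnr1 at -0.51 ± 0.11 (SE, edgeR adjusted p 0.00882). Sex cannot be told apart from other properties that these libraries share, and the part of rRNA depletion in these values was not tested.

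**Figure D4:**
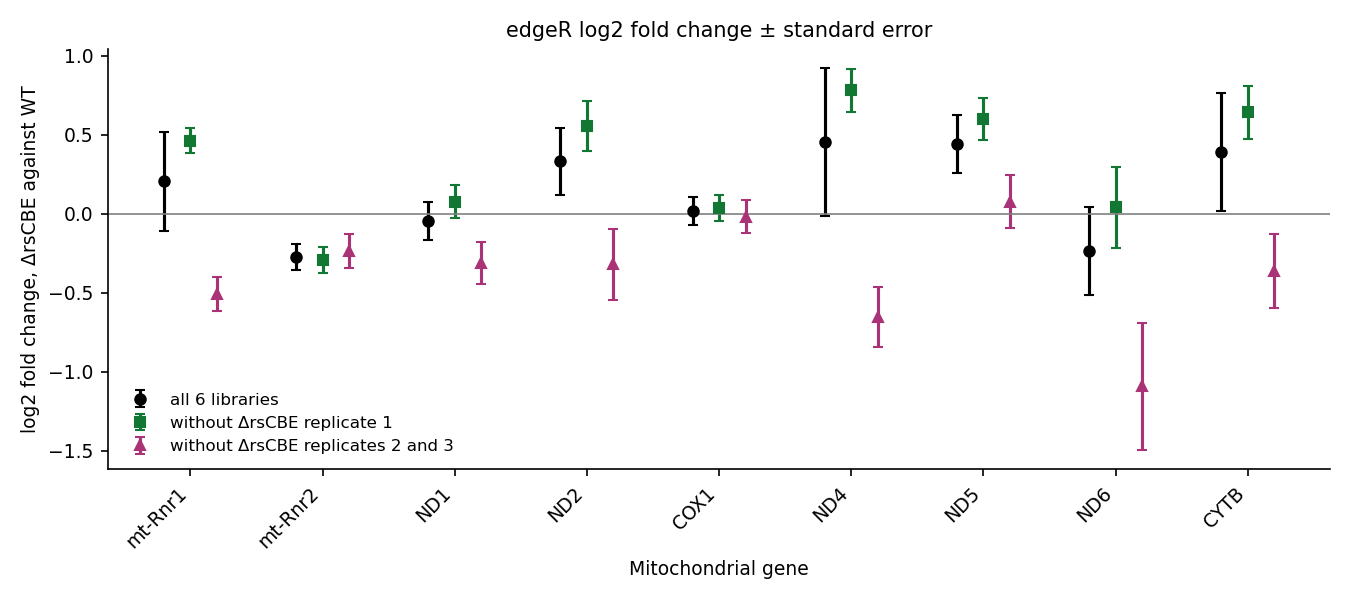
Points are edgeR log2 fold changes of ΔrsCBE against WT with their standard errors for the 9 tested genes, from all 6 libraries, without ΔrsCBE replicate 1 and without ΔrsCBE replicates 2 and 3. mt-Rnr2 stays below 0 in all 3 fits, COX1 lies at 0.02, 0.03 and -0.02, and mt-Rnr1 and ND4 lie at 0.46 and 0.78 in the second fit and at -0.51 and -0.65 in the third.

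Within the mitochondrial counts, the total is fixed and only composition remains. COX1 took 4.63%, 4.36% and 4.17% of mitochondrial counts in WT and 5.08%, 5.38% and 4.93% in ΔrsCBE, and ND5 took 0.926%, 1.098% and 0.849% against 1.19%, 1.73% and 1.59%. In these 2 of the 9 tested genes each ΔrsCBE library was above each WT library. Of all tested genes, 19.6% did not overlap when expressed per mitochondrial count, so 2 of 9 is near the background and says nothing particular about these genes. In CPM of the library the groups overlapped for COX1, with an edgeR log2 fold change of 0.02, and most of the denominator used here is mt-Rnr2. For mt-Rnr2 the share was 87.1%, 88.9% and 87.8% in WT and 88.1%, 82.3% and 83.2% in ΔrsCBE, and for mt-Rnr1 it was 5.76%, 4.23% and 5.58% against 4.26%, 8.12% and 8.18%. In both rRNAs ΔrsCBE replicate 1 lay within the WT range and ΔrsCBE replicates 2 and 3 lay outside it. Among coding counts alone, COX1 made up 63.8% ± 1.01 in WT and 59.9% ± 5.52 in ΔrsCBE, ND5 13.9% ± 1.74 and 17.4% ± 1.64, and ND1 12.7% ± 0.504 and 11.3% ± 0.632 (SD, n = 3).

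The nuclear genes that maintain and express mitochondrial DNA were examined in 5 lists of 75 genes, of which 46 were tested. By edgeR or by the DESeq2 Wald test 0 passed the threshold, against 1.69% of all tested genes by edgeR, and 4 of the 46 had an unadjusted edgeR p under 0.05, against 10.2%. Both counts are near the background and say nothing particular about these genes. The log2 fold change was above 0 for 23 and below 0 for 23, with a median of 0.00 against 0.01 for all tested genes. The summed level of the lists was 2135 to 2234 CPM in WT and 2205 to 2236 CPM in ΔrsCBE. Log2 fold changes were above and below 0 for 5 and 4 genes of replication, 1 and 4 of transcription, 9 and 10 of RNA processing and decay, 3 and 4 of rRNA modification and ribosome assembly, and 5 and 2 of transcriptional coactivators (medians 0.02, -0.08, -0.04, -0.00 and 0.15). The 2 genes of smallest p in each list are given here.

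For replication of mitochondrial DNA these were Dna2, a nuclease and helicase, and Atad3a, a membrane ATPase of the nucleoid. Dna2 had 17.7, 14.0 and 18.5 CPM in WT and 9.53, 5.02 and 12.3 CPM in ΔrsCBE, and its log2 fold change was -0.97 ± 0.42 (SE, edgeR adjusted p 0.391). In ΔrsCBE replicate 2, 3 counts are worth 3.01 CPM, so that the Dna2 value there is near the limit of detection. Atad3a had a log2 fold change of 0.61 ± 0.37 (SE). For transcription they were Tfam, which packages mitochondrial DNA and activates its promoters, and Mterf4, a factor of ribosome assembly. Tfam had 54.6, 42.0 and 63.8 CPM in WT and 50.03, 50.2 and 45.7 CPM in ΔrsCBE, and the groups overlapped (log2 fold change -0.20, standard error 0.22, edgeR adjusted p 0.822). Mterf4 had a log2 fold change of -0.18 ± 0.31 (SE).

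For RNA processing and decay they were Rexo2, an exonuclease that clears very short RNAs, and Trmt10c, a subunit of the enzyme that cuts tRNA 5′ ends. Rexo2 had 51.4, 35.04 and 33.8 CPM in WT and 29.8, 25.1 and 17.3 CPM in ΔrsCBE (log2 fold change -0.71, standard error 0.29, edgeR adjusted p 0.339). Trmt10c had 27.3, 25.7 and 16.1 CPM in WT and 8.34, 15.1 and 12.3 CPM in ΔrsCBE (log2 fold change -0.84, standard error 0.38, edgeR adjusted p 0.425). Neither gene's groups overlapped, against 16.1% of all tested genes without overlap in TMM-scaled CPM, and neither passed the threshold. Both were chosen for a small p, so the lack of overlap says nothing particular about them. For rRNA modification and ribosome assembly they were Mettl17, an assembly factor of the small subunit, and Nsun4, a methyltransferase of mitochondrial rRNA. Mettl17 had 6.42, 9.34 and 6.92 CPM in WT and 22.6, 15.1 and 13.6 CPM in ΔrsCBE (log2 fold change 1.20, standard error 0.44, edgeR adjusted p 0.239). In the WT libraries 3 counts are worth 4.81, 7.01 and 2.31 CPM, so that its WT values are near the limit of detection. Nsun4 had a log2 fold change of 0.68 ± 0.36 (SE). Its 4.67 CPM in WT replicate 2 was under the 7.01 CPM that 3 counts are worth there, and without that library the log2 fold change was 0.44. For the coactivators they were Pprc1, a relative of the PGC coactivators, and Esrra, a nuclear receptor that works with them, with log2 fold changes of 0.53 and 0.55 and standard errors of 0.31 and 0.35.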

How the data were processed

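Small pre-B cell RNA from 6 libraries was analysed, 3 per genotype, made per the labels' protocols from 1 µg of RNA, after rRNA depletion, with a stranded total RNA kit. The deposited table holds raw read counts per gene symbol. Per the submitters' processing notes, Trim Galore 0.6.10, STAR 2.7.11, HTSeq, DESeq2 and the build mm10 were named. Annotation, strand setting and treatment of multi-mapping reads are not given in the sources used here. Read length is likewise not given.

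The counts were tested with edgeR 4.0.16 in R 4.3.3: filterByExpr (minimum count 10), TMM scaling, robust glmQLFit and glmQLFTest with genotype as sole factor, and Benjamini-Hochberg adjustment over all tested genes at 0.05. A fitted log2 fold change has its standard error from the F statistic. CPM values are counts per 1000000 counts of the library unless called TMM-scaled. Shares were compared by exact two-sided permutation over libraries, with 95% Wilson intervals. The edgeR script was tested on simulated data. Mitochondrial genes were compared with all other GENCODE M21 transcripts by blastn 2.17.0 (e-value 1e-10, word size 16) and by windows of 50 bases matched without mismatch. Unannotated nuclear copies were thereby missed. Positions are those of GENCODE M21 on GRCm38, to which all 15 members were matched by start and end position.

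The text names every member and, per nuclear list, genes past the threshold and the 2 of smallest p. Members, lists and tests were chosen with earlier results of these data known. Libraries of a genotype differed by more than sampling noise, with chi-square over its degrees of freedom at 1.78 to 3.18. Alternatives covered scaling, filter, tool (DESeq2 1.42.0), threshold, block, sex and single libraries left out. Leaving out both female libraries and other window lengths were chosen after seeing the data.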

Additional observations from a re-analysis of the deposited data

How the results depend on the processing

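Single libraries and the depth of the table limit these results. The difference in mitochondrial share of -1.47 points was negative under each alternative that kept the rRNA genes (-2.17 to -0.97 with 1 or 2 libraries left out) and 0.0691 with coding genes alone. The summed mitochondrial log2 fold change was -0.24 to -0.19 under 9 alternatives and -0.31 to -0.14 with 1 or 2 libraries left out. The 0 members past the threshold became 2 without a count filter (mt-Rnr2 and ND5), 1 at a CPM of at least 1 in 3 libraries (mt-Rnr2), 1 with the replicate block (ND5), 1 with the sex covariate (mt-Rnr1, lower), 2 without both female libraries (mt-Rnr1 and ND4, lower) and 0 to 3 with single libraries left out. The 3 were mt-Rnr1, ND4 and ND5, higher without ΔrsCBE replicate 1, and the cause was not tested. Scaling changed no call. The rRNA share of mitochondrial counts stayed lower in ΔrsCBE throughout (-2.20 to -1.26 points with single libraries left out, -0.79 without both female libraries). The tRNA share difference was 0.000634 without both female libraries. The light-strand difference of 8.24e-05 points had no stable sign: it was -0.000472 over all library counts, -0.126 without rRNA, -0.00025 for ND6 alone, -0.0223 as mean log2 shares, -0.0181 without both female libraries and -0.00767 to 0.00919 with single libraries left out. With the sex covariate, log2 fold changes were -0.51 for mt-Rnr1, -0.32 for ND2, -0.022 for COX1, -0.65 for ND4, -0.37 for CYTB, -0.31 for ND1 and -1.10 for ND6. They were -0.51, -0.32, -0.019, -0.65, -0.36, -0.31 and -1.09 without both female libraries. With single libraries left out, they ran from -0.19 to 0.076 for ND1, -0.049 to 0.10 for COX1 and -0.50 to 0.041 for ND6. With that covariate, ΔrsCBE replicate 1 alone sets the genotype term. Same-numbered libraries did not deviate together (correlations 0.00908 to 0.0197, others -0.0472 to 0.0345), so the replicate numbers were not taken as pairs. With that replicate block the share difference was -1.47, the summed log2 fold change -0.21, and calls among the nuclear lists stayed at 0. Of 304 alternatives over 19 single genes, 280 kept direction and side of the threshold, 15 reversed, 3 of these with a call, and 9 gained a call in the same direction. The alternative threshold reused the main fit of each gene and could not change direction, so these alternatives are not independent checks. Over all genes, the 132 calls became 87 with the sex covariate and 59 to 187 with single libraries left out (59 without WT replicate 3 or without ΔrsCBE replicate 3). Floors of 2.31 to 7.01 CPM limit what can be said of tRNAs and of the genes at or near 0.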
